A study of Homo sapiens with 6 samples.

Results

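Genes of the actomyosin cytoskeleton, together with serum response factor (SRF) and its coactivators MRTFA and MRTFB, were followed in MDA-MB-231 cells under 3 flow conditions. MDA-MB-231 is an established line of human breast cancer that lacks the hormone receptors and HER2, and the cells here were a variant that homes to bone. The 36 genes were taken by gene symbol from the 60591 rows of a count table, and all 36 passed the filter on low counts. Cells were held in a 3D mechanical loading model without flow (static, 0 mL/min), under low flow (1 mL/min) or under high flow (15 mL/min), with 2 libraries per condition and the same cell variant in each. No genetic change or drug is named in the labels, and the labels do not say whether the libraries of a condition came from separate cultures.

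The static libraries held 17822642 and 23544307 counts, the low flow libraries 45174328 and 47067620, and the high flow libraries 43965176 and 53279537, so the static values carry the largest counting error. By their column names, static and low flow libraries carry the same lane label, and the high flow libraries carry another. The high flow names also differ in form, and the names do not say whether the libraries shared a sequencing run. Wherever high flow is compared, lane and anything else that differs with these names cannot be told apart from flow. Genes known for the parent line (VIM, CD44, KRT18, KRT8, AXL, CAV1 and EGFR) summed to between 6100 and 7730 CPM (counts scaled to a common library size), and ESR1, PGR and CDH1, which the line is known to lack, to between 0.132 and 0.391 CPM. One label calls the cells endothelial, but CDH5 was at or below 0.087 CPM and VWF at or below 0.22 CPM. PECAM1 made up most of the endothelial marker sum of 10.3 to 16.1 CPM. Smooth muscle markers summed to 2.89 to 4.17 CPM, and MYH11, the smooth muscle myosin heavy chain, was at or below 0.13 CPM. In bulk RNA, fewer cells of a kind and less RNA per cell cannot be told apart.

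Actin filaments grow from monomers, are bundled by cross-linkers and are pulled on by non-muscle myosin II, which its light chains switch on when they are phosphorylated. Monomeric actin holds MRTFA and MRTFB in the cytoplasm. When monomers are used up in filaments, these coactivators enter the nucleus, join SRF on a short motif named the CArG box and raise transcription of many genes that encode the filaments, their cross-linkers and their regulators. Fluid flow over a cell surface is a textbook stimulus of this circuit, best studied in endothelial cells.

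The promoters of the 36 genes were read for that motif because it is a letter pattern that SRF targets are known to share. Windows of 250 bases before to 50 bases after each annotated start were taken from RefSeq on GRCh38.p14 and searched on both strands for a pair of C, then 6 bases that are each A or T, then a pair of G. Of the 36 genes, 33 had a window, and ACTB, TAGLN and MYL9 did not. A box stood in 8 of the 33 genes (24.2%), against 438 of all 27305 genes with a window (1.6%). Several of the 36 genes were listed because they are known SRF targets, so this share is a description of the list. The 3 genes with a box that differed most between high flow and static are shown from 150 bases before an annotated start to the base before it, 5′ to 3′ on the gene's strand, with the box in capitals. They are TGFB1I1 at chr16:31473055-31473204 on the plus strand, FLNA at chrX:154374635-154374784 on the minus strand and FHL2 at chr2:105399052-105399201 on the minus strand.
TGFB1I1: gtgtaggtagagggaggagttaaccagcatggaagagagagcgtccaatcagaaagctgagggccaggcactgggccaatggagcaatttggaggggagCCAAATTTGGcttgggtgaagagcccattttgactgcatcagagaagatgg
FLNA: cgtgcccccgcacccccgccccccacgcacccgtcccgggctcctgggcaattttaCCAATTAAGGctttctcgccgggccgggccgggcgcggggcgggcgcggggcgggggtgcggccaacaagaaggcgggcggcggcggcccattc
FHL2: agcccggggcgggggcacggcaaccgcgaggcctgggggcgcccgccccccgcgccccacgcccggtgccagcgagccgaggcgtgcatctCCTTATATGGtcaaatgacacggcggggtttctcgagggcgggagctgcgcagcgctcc

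The box begins 51 bases before the start shown in TGFB1I1, 94 bases before it in FLNA and 59 bases before it in FHL2. In TGFB1I1 and FHL2 that start lies well inside the span of the gene given below. Which starts these cells used was not examined. The flanks differ in composition: the FLNA and FHL2 stretches run through long tracts of G and C, and the TGFB1I1 stretch does not. The sites of the other holders are given with 10 bases of flank, cut off at the start, again with the box in capitals. They lie at chr17:81512874-81512903 (ACTG1, minus strand), chr14:68977718-68977747 (ACTN1, minus), chr19:1026509-1026538 (CNN2, plus), chr6:43171229-43171268 (SRF, plus), chr19:16067355-16067384 (TPM4, plus) and, for another start of FHL2, chr2:105438595-105438624 (minus).
ACTG1: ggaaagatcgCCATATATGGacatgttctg
ACTN1: acgctcatgtCCAAAAATGGtaacattcat
CNN2: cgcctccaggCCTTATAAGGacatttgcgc
SRF: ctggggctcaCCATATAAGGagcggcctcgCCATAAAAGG
TPM4: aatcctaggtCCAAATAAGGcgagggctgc
FHL2, other start: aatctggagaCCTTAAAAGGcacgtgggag

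The SRF promoter holds 2 boxes within its last 30 bases before the start. A match of letters is not evidence that SRF bound there in these cells, and a window without a match says only that the letters are not in that window.

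Most of the 36 genes were abundant. Scaled to transcript length, 18 of them ranked above the 90th percentile of 20000 tested genes and 8 above the 99th. ACTB and ACTG1, the cytoplasmic actins, led with means of 1285 and 1266 CPM per kb over the 6 libraries, followed by PFN1, the monomer-binding profilin, with 795 CPM per kb. At the other end, TAGLN had 2.57, ACTA2, smooth muscle actin, 1.26, and CNN1, the smooth muscle calponin, 0.126 CPM per kb. CNN1 had between 5 and 13 counts per library, and its fold changes carry standard errors (SE) above 0.6 on the log2 scale. All 36 genes together took 1.97 and 1.88% of the counts under high flow, 1.83 and 1.78% under low flow and 1.88 and 1.77% in static libraries. These ranges overlap.

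**Figure D1:**
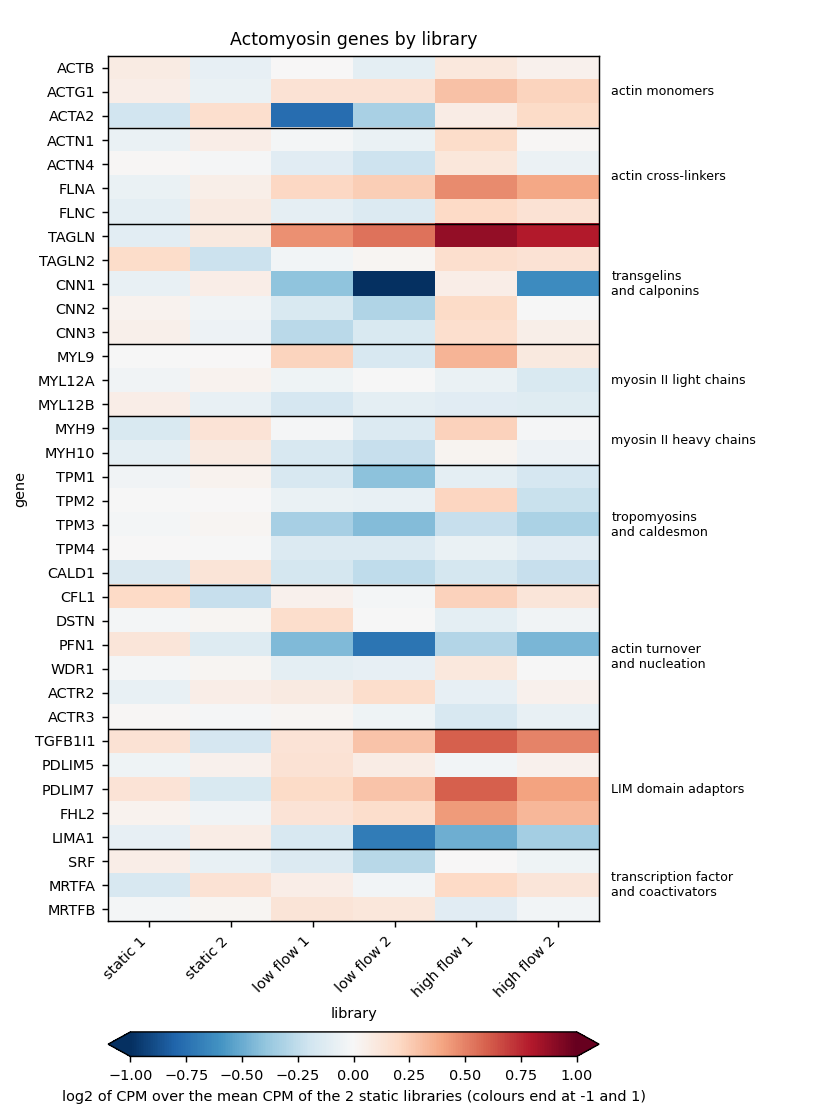
Each row is 1 of the 36 genes, grouped by role, and each column 1 library, and the colour gives the log2 ratio of that library's CPM to the mean CPM of the 2 static libraries. TAGLN, TGFB1I1, PDLIM7, FHL2 and FLNA were high in both high flow libraries, PFN1 and TPM3 were low in all 4 flow libraries, and the single dark cell of CNN1 rests on 5 counts.

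Under high flow, 5 of the 36 genes were higher than in static libraries and none was lower. These were TAGLN, TGFB1I1, PDLIM7, FLNA and FHL2, between 1.30-fold and 1.78-fold (edgeR quasi-likelihood test, Benjamini-Hochberg adjusted p under 0.05). The count of 5 in 36 stands beside 7.49% of all tested genes that were higher and 6.43% that were lower, 13.9% in all. Of 4816 genes at or above 47.78 CPM, the lower quartile of the 36 genes, 11.3% were higher. TAGLN, TGFB1I1 and FHL2 lay below that level, so this share is not matched to the count of 5. The remaining genes did not pass. At an unadjusted p under 0.05 there were 6 higher and 3 lower, with no share of all tested genes counted at that cut-off. DESeq2 called 6 higher and 3 lower (LIMA1, PFN1 and TPM3), against 1595 higher and 1105 lower of 15848 genes. The count of 5 fell without static replicate 2 or without either high flow replicate, and so did the calls over all tested genes. With all 6 libraries the median log2 fold change of the 36 genes was 0.04, against 0.00 for all tested genes. With 1 library left out it lay between 0.000756 and 0.0995. Both high flow libraries lay above both static ones in 9 genes and below them in 11, where 29.9% and 29.4% of all tested genes did so.

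Under low flow, 2 of the 36 genes fell relative to static, PFN1 and TPM3, and none rose. Across all tested genes 3.49% were lower and 3.25% higher, 6.74% in all, so a count of 2 in 36 is near the background. The median of the 36 genes was -0.06 on the log2 scale, against 0.01 for all tested genes, with 23 negative and 13 positive values. Both low flow libraries lay below both static ones in 16 genes and above them in 8, against 26.3% and 27.1% of all tested genes. At an unadjusted p under 0.05 there were 2 higher and 7 lower, with no share of all tested genes counted at that cut-off. DESeq2 called 0 higher and 2 lower, against 834 higher and 804 lower of 14424 genes. The count of 2 rose without low flow replicate 1 and fell when any other library was left out. The calls over all tested genes moved in the same way. With 1 library left out, the median of the 36 genes lay between -0.0885 and -0.033.

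Between high flow and low flow none of the 36 genes passed the edgeR test, and DESeq2 called none. The background was also low, with 0.334% of all tested genes called, 0.242% higher and 0.0919% lower. At an unadjusted p under 0.05, 8 of the 36 were higher and none was lower, with no share of all tested genes counted at that cut-off. High flow gave the larger value in 29 genes, with a median log2 fold change of 0.15 against 0.01 for all tested genes. Both high flow libraries exceeded both low flow libraries in 22 genes and lay below them in 6, where 21.2% and 21.5% of all tested genes did so.

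**Figure D2:**
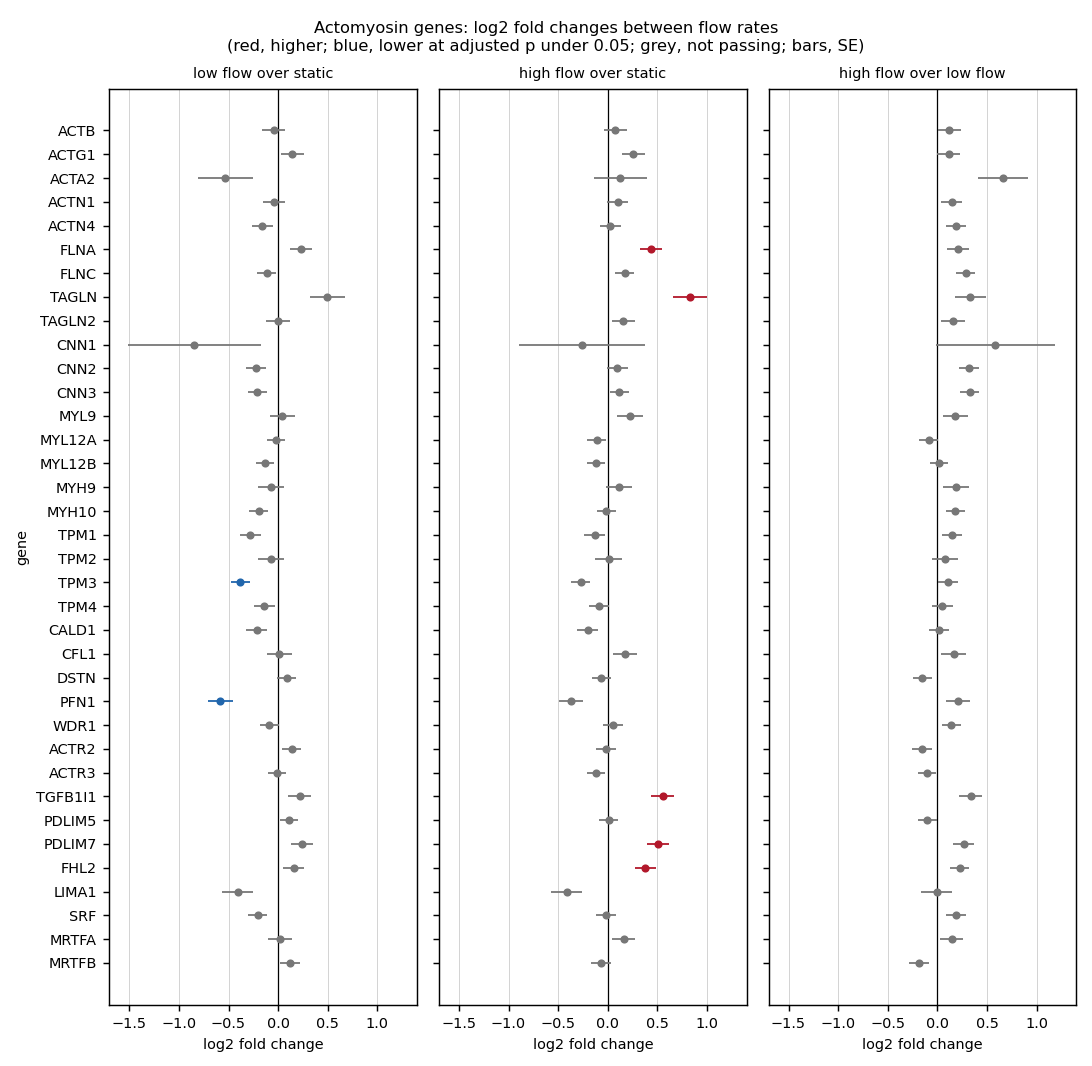
Points are log2 fold changes of the 36 genes in the 3 comparisons, with bars of 1 SE. Under high flow against static 5 genes passed at an adjusted p under 0.05 and were higher (red), under low flow against static 2 were lower (blue), and none passed between high and low flow (grey).

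The transgelins and calponins bind along actin filaments and are classic SRF targets of smooth muscle. TAGLN, transgelin (chr11:117199321-117204782, plus strand, GRCh38), had 3.69 and 4.26 CPM in static libraries, 5.47 and 5.80 CPM under low flow and 7.30 and 6.89 CPM under high flow. The 3 conditions did not overlap, and each step of flow lay above the one before it. Of all tested genes, 27.1% lay above static in both low flow libraries and 21.2% lay above low flow in both high flow libraries. TAGLN was 1.78-fold higher under high flow than in static libraries (log2 0.83, SE 0.18, edgeR adjusted p = 0.00564), the largest change among the 36 genes that passed. Without high flow replicate 1 the adjusted p was 0.0855. Under low flow TAGLN had a log2 value of 0.50 (SE 0.18, adjusted p = 0.0972) against static. Its level was low, since TAGLN ranked at the 40th percentile of tested genes per length.

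The other members of the family did not pass in any comparison. TAGLN2, the widely expressed transgelin, had 627 and 475 CPM in static libraries, 542 and 559 CPM under low flow and 617 and 610 CPM under high flow. The static libraries of TAGLN2 lay further apart than the conditions. CNN2 had a log2 fold change of 0.32 between high and low flow (SE 0.10, adjusted p = 0.285) and CNN3 one of 0.33 (SE 0.10, adjusted p = 0.255). Both calponins were at their lowest under low flow, where CNN3 had 110 and 120 CPM, against 137 and 128 CPM in static and 149 and 138 CPM under high flow.

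LIM domain adaptors sit on actin filaments and at adhesions, and some of them carry signals to the nucleus. Of the 5 listed, 3 were higher under high flow than in static libraries, against 7.49% of all tested genes. TGFB1I1, also named Hic-5, a paxillin relative at focal adhesions (chr16:31471585-31477960, plus strand), had 30.5 and 24.6 CPM in static libraries, 30.2 and 33.6 CPM under low flow and 41.7 and 38.8 CPM under high flow. Both high flow libraries stood above the other 4, and the low flow libraries overlapped the static ones. The difference from static was 1.47-fold (log2 0.55, SE 0.12, edgeR adjusted p = 0.00601). Leaving out static replicate 2 gave an adjusted p of 0.112, and leaving out high flow replicate 1 gave 0.104.

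PDLIM7, or Enigma, a PDZ and LIM adaptor of actin bundles (chr5:177483394-177497606, minus strand), had 197 and 161 CPM in static libraries, 204 and 219 CPM under low flow and 272 and 236 CPM under high flow. The 3 conditions did not overlap. PDLIM7 was 1.42-fold higher under high flow than in static libraries (log2 0.50, SE 0.11, edgeR adjusted p = 0.00689). Leaving out static replicate 2 gave 0.123, and leaving out high flow replicate 1 gave 0.143.

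FHL2, a LIM-only protein that shuttles between adhesions and the nucleus (chr2:105357712-105438513, minus strand), had 32.1 and 30.5 CPM in static libraries, 34.3 and 35.4 CPM under low flow and 42.0 and 39.4 CPM under high flow. Its 3 conditions did not overlap either, in the same order, although only the difference of high flow from static passed. That difference was 1.30-fold (log2 0.38, SE 0.10, edgeR adjusted p = 0.0209), and it no longer passed without static replicate 2 (adjusted p = 0.146) or without high flow replicate 1 (0.198) or 2 (0.078).

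PDLIM5 and LIMA1, the other adaptors, did not pass. PDLIM5, or ENH, had 175 and 186 CPM in static libraries, 200 and 190 CPM under low flow and 178 and 186 CPM under high flow. LIMA1, or EPLIN, which stabilises actin bundles at junctions, had 115 and 128 CPM in static libraries, 108 and 74.4 CPM under low flow and 86.2 and 95.5 CPM under high flow. All 4 flow libraries of LIMA1 lay below both static ones. Its log2 fold change was -0.41 under high flow (SE 0.16, edgeR adjusted p = 0.108) and -0.41 under low flow (SE 0.16, adjusted p = 0.148). LIMA1 passed as lower under high flow in the 4 libraries compared alone (edgeR adjusted p = 0.00257). It did not pass there with length and GC offsets (log2 -0.273, adjusted p = 0.274). Its log2 value was -0.489 or -0.329 without static replicate 1 or 2, and -0.339 or -0.496 without high flow replicate 1 or 2. Under low flow the LIMA1 value was -0.702 without low flow replicate 1, which leaves the lower of its low flow libraries. Without low flow replicate 2 it was -0.162.

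**Figure D3:**
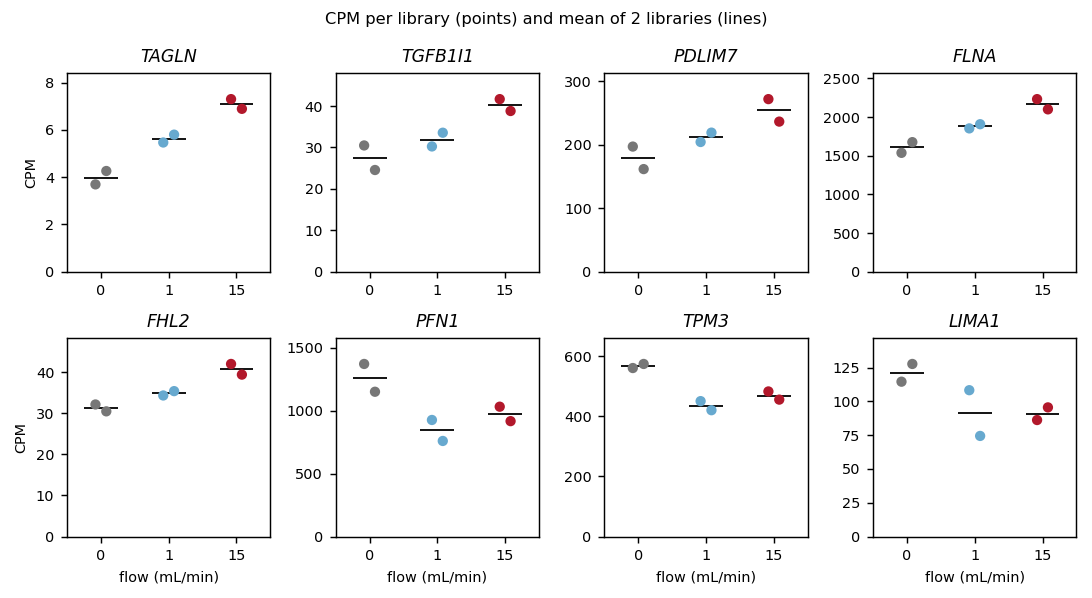
Points are CPM in each library against the flow rate in mL/min for 8 of the genes, and lines are means of 2 libraries. TAGLN, PDLIM7, FLNA and FHL2 were higher at each step from 0 to 15 mL/min without overlap, but did not pass at either single step. Of all tested genes, 27.1% lay above static in both low flow libraries and 21.2% lay above low flow in both high flow libraries. TGFB1I1 was high at 15 mL/min, and PFN1, TPM3 and LIMA1 were below static at both flow rates.

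Among the cross-linkers, FLNA alone passed the test. Filamin A (chrX:154348524-154374638, minus strand) ties crossing filaments into a network and links them to integrins. FLNA had 1538 and 1676 CPM in static libraries, 1854 and 1908 CPM under low flow and 2233 and 2100 CPM under high flow. The conditions did not overlap, and the mean was 2167 ± 93.7 CPM under high flow and 1607 ± 98.0 CPM in static libraries (SD, n = 2 each). The difference was 1.35-fold (log2 0.43, SE 0.11, edgeR adjusted p = 0.0163). FLNA lost its call in a fit with offsets for transcript length and GC content (log2 0.09, adjusted p = 0.596). It also did not pass without static replicate 1 (adjusted p = 0.0835), static replicate 2 (0.0706), high flow replicate 1 (0.18) or high flow replicate 2 (0.0745).

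FLNC, the muscle filamin, had 81.0 and 92.3 CPM in static libraries, 81.2 and 78.7 CPM under low flow and 99.5 and 95.5 CPM under high flow. Its log2 fold change was 0.29 between high and low flow (edgeR adjusted p = 0.336) and 0.17 against static (adjusted p = 0.261). ACTN1 and ACTN4, the alpha-actinins that bundle stress fibres, had log2 values of 0.10 (adjusted p = 0.567) and 0.03 (adjusted p = 0.895) under high flow against static, so no difference could be told from the replicate spread.

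The cytoplasmic actins themselves did not pass in any comparison. ACTB, beta-actin, had 2589 and 2311 CPM in static libraries, 2462 and 2293 CPM under low flow and 2632 and 2529 CPM under high flow, with overlap between high flow and static. Its log2 fold change was 0.07 under high flow (SE 0.12, edgeR adjusted p = 0.713). ACTG1, gamma-actin, had 2717 and 2480 CPM in static libraries, 2867 and 2866 CPM under low flow and 3182 and 3026 CPM under high flow. The 3 conditions of ACTG1 did not overlap, with a log2 value of 0.26 under high flow against static (SE 0.12, adjusted p = 0.145), which DESeq2 called (adjusted p = 0.0244). Per transcript length, ACTB made up 49.3 and 49.5% of the ACTB and ACTG1 sum under high flow, 50.2 and 48.4% under low flow and 52.8 and 52.3% in static libraries, a ratio added after the values were seen. ACTA2 stayed at 1.08 to 2.08 CPM and at or below 0.0657% of the 3 actins per length in every library.

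Non-muscle myosin II pairs heavy chains with regulatory light chains, and none of its 5 genes passed in any comparison. MYH9, the main heavy chain, had 2267 and 2761 CPM in static libraries, 2497 and 2280 CPM under low flow and 2950 and 2497 CPM under high flow, and its replicates spread as far as its conditions. MYH10 made up 4.34 to 4.83% of the 2 heavy chains per length under high flow, 4.51 to 4.67% under low flow and 4.82 to 5.14% in static libraries. MYL9, the light chain known as an SRF target, had 32.1 and 32.3 CPM in static libraries, 37.6 and 28.9 CPM under low flow and 40.9 and 34.4 CPM under high flow (log2 0.22, SE 0.13, edgeR adjusted p = 0.262 for high flow against static). Both high flow libraries of MYL9 lay above static, and the low flow libraries lay on either side of it. MYL12A and MYL12B, the other light chains, had log2 values of -0.11 (adjusted p = 0.456) and -0.12 (adjusted p = 0.434) in the same comparison.

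Tropomyosins lie along the actin groove and set which proteins may bind the filament, and caldesmon binds with them. All 5 of these genes were below static in both low flow libraries, and 4 of them also in both high flow libraries, the exception being TPM2. Of all tested genes, 26.3% lay below static in both low flow libraries and 29.4% in both high flow libraries. TPM3 (chr1:154155304-154194648, minus strand) had 561 and 575 CPM in static libraries, 451 and 421 CPM under low flow and 483 and 456 CPM under high flow. The static libraries stood well above the other 4. TPM3 fell 1.30-fold under low flow (log2 -0.38, SE 0.10, edgeR adjusted p = 0.0266), with a log2 value of -0.27 under high flow (SE 0.10, adjusted p = 0.0683). The low flow call ended in the 4 libraries compared alone (adjusted p = 0.0632) and without either static replicate (0.0637 and 0.148), without low flow replicate 2 (0.226) or without either high flow replicate (0.0622 and 0.0606). Rows of 8 TPM3 pseudogenes held 3.11% as many counts as TPM3, so a small part of its reads may be placed elsewhere.

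No other gene of the group passed. TPM1 had a log2 value of -0.28 under low flow (SE 0.11, edgeR adjusted p = 0.113). This value was -0.409 or -0.161 without low flow replicate 1 or 2, and -0.318 or -0.238 without static replicate 1 or 2. TPM4, the most abundant tropomyosin per length, had 1316 CPM in each static library, 1196 CPM in each low flow library and 1258 and 1216 CPM under high flow. Its log2 values were -0.14 under low flow (adjusted p = 0.449) and -0.09 under high flow (adjusted p = 0.605). CALD1, caldesmon, had -0.22 under low flow (adjusted p = 0.218) and -0.20 under high flow (adjusted p = 0.205).

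Among genes of actin turnover and nucleation, profilin 1 was the one that changed. PFN1 (chr17:4945652-4949061, minus strand) hands actin monomers to growing filament ends. It had 1371 and 1151 CPM in static libraries, 926 and 759 CPM under low flow and 1032 and 917 CPM under high flow. All 4 flow libraries lay below both static libraries. PFN1 averaged 843 ± 118 CPM under low flow and 1261 ± 156 CPM in static libraries (SD, n = 2 each), and it fell by 0.58 on the log2 scale (SE 0.12, edgeR adjusted p = 0.012). This call was lost without static replicate 1 (adjusted p = 0.0837) and without low flow replicate 2 (0.094).

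Under high flow the PFN1 value was -0.37 on the log2 scale (SE 0.12, edgeR adjusted p = 0.0523), just outside the threshold. It passed in the 4 libraries compared alone (adjusted p = 0.0159), with DESeq2 (0.0202) and with length and GC offsets (0.0214). With a replicate block it did not pass (adjusted p = 0.055). The PFN1 log2 value was -0.239 or -0.488 without static replicate 1 or 2, and -0.455 or -0.294 without high flow replicate 1 or 2.

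The severing and recycling factors gave no call. CFL1, cofilin, which severs old filaments, had 886 and 661 CPM in static libraries, 796 and 763 CPM under low flow and 905 and 840 CPM under high flow. Its static libraries bracketed most other values, and CFL1 passed as higher under high flow only without static replicate 1 (log2 0.40, edgeR adjusted p = 0.0477). DSTN, the related destrin, had log2 values of 0.09 under low flow and -0.07 under high flow (adjusted p = 0.641 and 0.697). WDR1, which helps cofilin take filaments apart, had 0.05 under high flow (adjusted p = 0.76). ACTR2 and ACTR3, the actin-like subunits that seed branches in the Arp2/3 complex, had -0.02 (adjusted p = 0.928) and -0.12 (adjusted p = 0.423).

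The transcription factor and its coactivators gave no call in their own RNA. SRF had 119 and 108 CPM in static libraries, 103 and 93.5 CPM under low flow and 114 and 110 CPM under high flow. Both low flow libraries were the lowest of the 6 (log2 -0.21 against static, SE 0.10, edgeR adjusted p = 0.211). With length and GC offsets this difference passed (log2 -0.30, adjusted p = 0.0397), but not with these offsets and a replicate block (adjusted p = 0.0641). The SRF value was -0.134 or -0.272 without static replicate 1 or 2, and -0.279 or -0.136 without low flow replicate 1 or 2. MRTFA had log2 values of 0.02 under low flow and 0.16 under high flow (adjusted p = 0.961 and 0.405). MRTFB had 32.1 and 33.1 CPM in static libraries, 35.6 and 35.3 CPM under low flow and 30.2 and 32.0 CPM under high flow, with log2 values of 0.12 and -0.07 (adjusted p = 0.526 and 0.70). The RNA level says nothing of where the MRTF proteins were in the cell.

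Read against the promoters printed above, 3 of the 8 genes with a CArG box were higher under high flow than in static libraries, FLNA, FHL2 and TGFB1I1. Of the 25 genes with a window but no box 1 was higher, PDLIM7. Over all tested genes with a window, 30 of 191 with a box (15.7%) and 1021 of 11703 without one (8.72%) were higher, and 9.42% and 7.22% were lower. ACTG1, ACTN1, CNN2, SRF and TPM4 hold a box and did not pass. These are shares with no test.

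Other genes known as targets of MRTF and SRF were counted from a list of 17 tested genes that holds none of the 36. The list was chosen with earlier results of these data known, so its counts are a description of the list. Under high flow 8 of the 17 were higher than static and none was lower, against 7.49% and 6.43% of all tested genes, with a median log2 fold change of 0.16. The count was 5 with length and GC offsets, where 1032 of 20676 tested genes were higher. It was smaller without static replicate 2 or high flow replicate 1, as were the calls over all tested genes. The 8 included THBS1, thrombospondin 1, and CCN2, connective tissue growth factor, both secreted matrix proteins that YAP also drives. THBS1 had 533 and 592 CPM in static libraries, 877 and 625 CPM under low flow and 1312 and 1285 CPM under high flow. CCN2 had 265 and 250 CPM in static libraries, 315 and 226 CPM under low flow and 568 and 509 CPM under high flow. For both genes the high flow libraries stood far above the other 4, and both also rose between high and low flow, 1.73-fold for THBS1 (edgeR adjusted p = 0.0169) and 1.99-fold for CCN2 (adjusted p = 0.00444). Against low flow the THBS1 call was lost without high flow replicate 1 (adjusted p = 0.251) or 2 (0.156), without static replicate 1 (0.0715) or 2 (0.0713), in the 4 libraries compared alone (0.0848) and with length and GC offsets (0.082). The CCN2 call was lost without high flow replicate 1 (adjusted p = 0.0831), without static replicate 1 (0.0558) or 2 (0.0545) and in the 4 libraries alone (0.0669).

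TLN1 and ITGA5, of the same list, were higher at both flow rates. Of all tested genes, 3.25% were higher under low flow than in static libraries and 3.49% were lower. TLN1, talin 1, which couples integrins to actin, was 1.49-fold higher under high flow (edgeR adjusted p = 0.00278) and 1.35-fold higher under low flow (adjusted p = 0.0238). ITGA5, the fibronectin receptor alpha chain, was 1.51-fold higher under high flow (adjusted p = 0.00651) and 1.39-fold higher under low flow (adjusted p = 0.0329). These were the 2 calls of the list under low flow, and of the single libraries left out in turn, only low flow replicate 1 left both in place. With length and GC offsets the low flow values of TLN1 and ITGA5 did not pass (adjusted p = 0.0587 and 0.0515), nor in the 4 libraries alone (0.0634 and 0.0726). The high flow call of TLN1 was lost without high flow replicate 1 (adjusted p = 0.072). That of ITGA5 was lost without high flow replicate 1 (adjusted p = 0.0921), without static replicate 2 (0.127) and with the offsets (0.0522).

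SRF also works with another set of partners, the ternary complex factors, which answer growth factor signals and drive immediate early genes. Of 8 such genes under high flow, 2 were higher than static and 2 were lower, against 7.49% and 6.43% of all tested genes. EGR1 was 2.15-fold lower (edgeR adjusted p = 0.0159) and EGR3 2.73-fold higher (adjusted p = 0.000356). Under low flow 2 were lower and none was higher, against 3.49% and 3.25% of all tested genes. EGR1 had 764 and 796 CPM in static libraries, 437 and 284 CPM under low flow and 402 and 325 CPM under high flow. Its call did not hold without static replicate 1 (adjusted p = 0.104 under high flow and 0.143 under low flow) or 2 (0.187 and 0.232).

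Regulators of the actin network gave calls in both directions. Under high flow against static, 3 of 22 nucleation genes were higher and 1 was lower, and with length and GC offsets none was higher and 2 were lower. Of 21 turnover genes 3 were higher and 2 lower, among them GSN, the severing protein gelsolin, with a log2 fold change of 0.59 (edgeR adjusted p = 0.00545, 0.10 without high flow replicate 1 and 0.102 without static replicate 2). Of 25 other cross-linkers and LIM proteins 4 were higher and 1 was lower, with CRIP2, a small LIM protein, 2.30-fold higher (adjusted p = 0.000828). Without high flow replicate 1 fewer genes of these 3 lists passed, and fewer of all tested genes did. For comparison, 13.9% of all tested genes passed in either direction with no library left out.

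**Figure D4:**
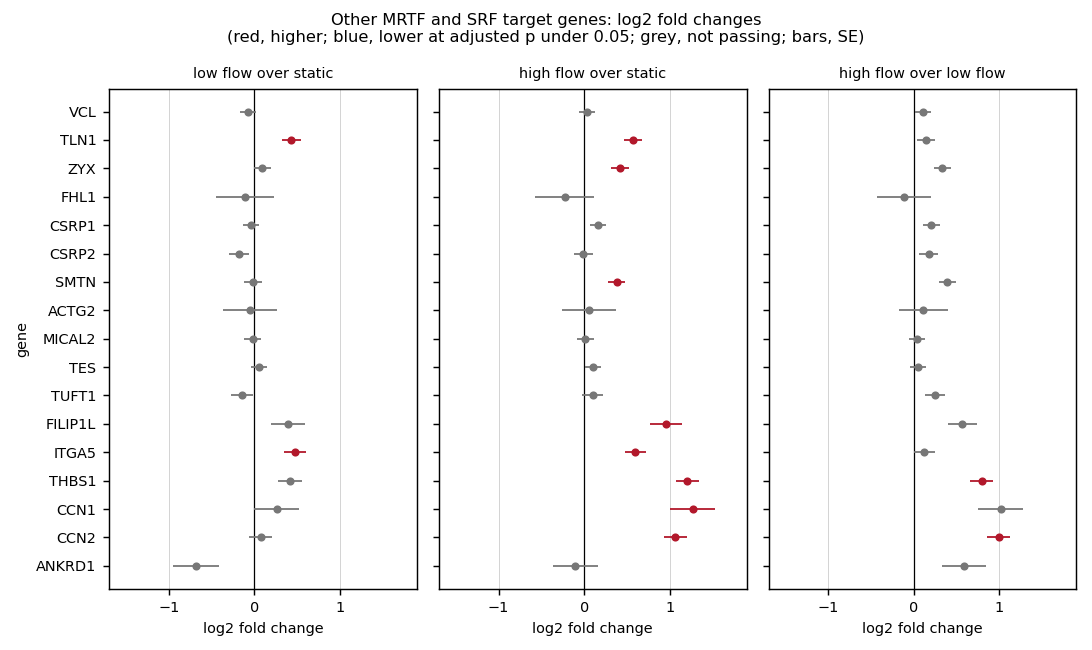
Points are log2 fold changes of the 17 other MRTF and SRF target genes in the 3 comparisons, with bars of 1 SE. Under high flow against static 8 genes passed and were higher (red), against 7.49% of all tested genes. Under low flow 2 were higher, against 3.25% of all tested genes, and THBS1 and CCN2 passed between high and low flow. The list was chosen with earlier results of these data known.

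The change between flow rates moved with base composition. Over 12527 genes the log2 fold change had a Spearman correlation with transcript GC content of 0.674 for high against low flow, 0.456 for high flow against static and 0.102 for low flow against static, each a description across genes of the same libraries. Among the 36 genes, the 7 with a negative value between high and low flow had transcripts of 35.7 to 44.9% GC, and the 29 with a positive value had 41.6 to 64.6% GC. With offsets for length and GC content the median of the 36 genes between high and low flow was 0.06, against 0.15 without, and that of high flow against static was -0.02, against 0.04 without. TAGLN, TGFB1I1, PDLIM7 and FHL2 kept their calls with these offsets, and FLNA did not. The log2 fold change for high flow against static was then 0.36 for TGFB1I1, against 0.55 without offsets, and 0.33 for PDLIM7, against 0.50 without.

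**Figure D5:**
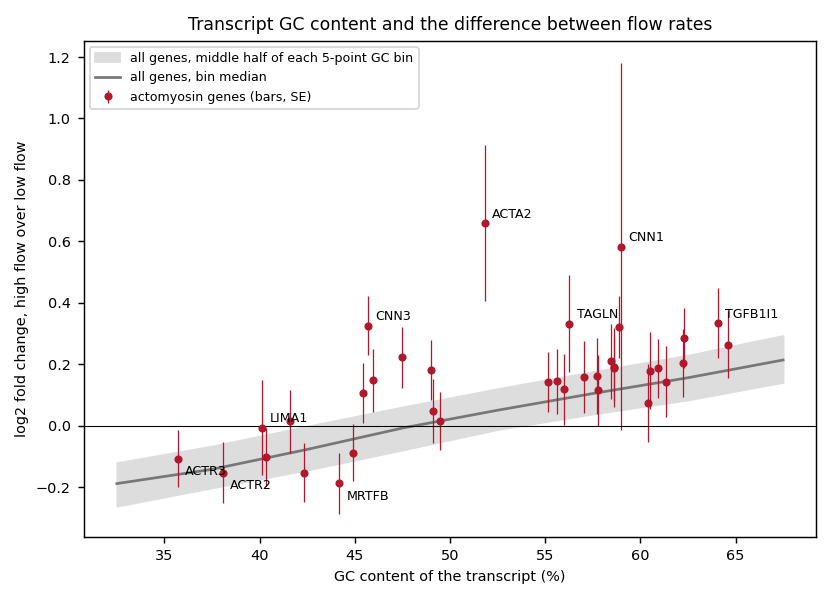
The vertical axis is the log2 fold change of high flow over low flow and the horizontal axis the GC content of the transcript in percent, with the 36 genes as points (bars, 1 SE) and all genes as a line of bin medians and a band of the middle of each bin. The bin medians go up with GC content, most of the 36 genes lie along or above that line, and MRTFB, ACTR2 and ACTR3 lie at its low end.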

How the data were processed

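Per the labels' protocols, RNA of the 6 samples was extracted with TRIzol and sequenced from KAPA stranded mRNA libraries. The values are raw counts per gene, as the authors deposited them. STAR, featureCounts and hg38 are named in the submitters' processing notes. Their versions and the annotation are not given in the sources used here. GENCODE 29 on GRCh38 gave gene positions, transcript lengths and GC contents, and 56490 of 60591 symbols matched 1 of its genes, the 36 members among them. Exons lying within those of a gene on the opposite strand had a median of 0.0124 of its count density over 283 pairs, against 0.266 over 123 pairs on the same strand, so the counts separate strands. ACTN1 and MRTFB share exon bases with a pseudogene on the same strand.

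Tests used edgeR 4.0.16 in R 4.3.3: quasi-likelihood fits of the counts in all 6 libraries, TMM scaling, a minimum count of 10 (20676 genes), 3 residual degrees of freedom, two-sided p-values and Benjamini-Hochberg adjustment over all tested genes with a threshold of 0.05. CPM were computed here from the counts and TMM factors. The script was tested on simulated counts. Library totals of 17822642 to 53279537 counts set the depth. Replicates of a condition differed beyond sampling noise (chi-square per degree of freedom 13.3 to 33.2), but no label says whether they were grown separately, and the p-values then reflect only how far these libraries spread, which may be technical. An exact permutation test of 2 against 2 libraries cannot go below 0.33 and was not used. Genes of blood cells (258 to 339 CPM, nearly all CD68) and osteoblasts (1.17 to 2.37 CPM) were also summed as markers.

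The members, gene lists and markers were chosen with earlier results of these data known. Named were all members and, from each other list and comparison, up to 4 of the genes that passed, in order of p. One further list is not reported here. The alternatives were RLE scaling, no expression filter, DESeq2 1.42.0, the 4 compared libraries alone, a replicate block, offsets for length and GC content (from genes at or above 1 CPM, splines with 5 degrees of freedom), both together, and each library left out.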

Additional observations from a re-analysis of the deposited data

How the results depend on the processing

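No result changed sign after passing, and between high and low flow no member passed in any alternative run. The 2 members lower under low flow became 1 (PFN1) in the 4 libraries compared alone, 3 without the expression filter (with LIMA1) and 3 with length and GC offsets (with SRF). Members lower under high flow than in static libraries, 0 as reported, numbered 2 without the expression filter, 3 with DESeq2, 2 in the 4 libraries alone, 1 with length and GC offsets and 1 with these offsets and the block. With offsets alone or with the block, the members' median for high flow against static was -0.0188 or -0.0187 and for high against low flow 0.0593 or 0.0596. Leaving out 1 library changed how many members passed against static, and how many of all tested genes did. The medians then ranged from -0.0885 to -0.033 for low flow against static, 0.000756 to 0.0995 for high flow against static and 0.0946 to 0.209 for high against low flow. Fewer members were higher under high flow without static replicate 2 or either high flow replicate, and fewer of all tested genes were higher in these fits. Allowing 1 mismatch raised the members with a CArG box to 12 of 33 (36.4%), and all genes with one to 9.88%. Exact matches gave 24.2% and 1.6%.

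Replicates of different conditions share only a number: same-numbered deviations over 12667 genes correlated at -0.301 between low flow and static, 0.0808 between high flow and static and 0.0475 between high and low flow. With the replicate block, 1 member was lower under low flow (PFN1, while TPM3 had an adjusted p of 0.0543), 5 were higher under high flow, and the medians were -0.0564, 0.0383 and 0.153 for low flow against static, high flow against static and high against low flow. With 2 libraries per condition, each leave-one-out fit assumes that the lone library varies like the others. The static depth limits genes such as CNN1 and ACTA2.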
